A study of Mus musculus with 10 samples.

Results

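The genes described here are the POU domain factors Pou5f1, Pou2f1, Pou3f1, Pou3f2, Pou3f3, Pou3f4, Pou4f1 and Pou6f1, chosen by symbol from the annotation of the arrays. Of the 8 genes, 7 were measured, on 14 of the 45037 probe sets that were not controls, among 18193 genes in all. Pou2f1 (Oct1) had no probe set under its own symbol in the annotation used and was not analysed here. Of the measured genes, 1 had 1 probe set, 5 had 2 and 1 had 3. One probe set that lists Pou3f3 together with another symbol was left out.

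The study hybridised total RNA of mouse cell cultures to 10 Affymetrix arrays, 1 sample an array, and deposited log2 expression values made with RMA, a method that corrects background, normalises by quantiles and summarises the probes of a set. The titles give 3 groups. The first, with 3 arrays, is labelled as neural stem cells (NSC) differentiated from iPS cells that had been made with Oct4 as the only factor. The second, with 3 arrays, is labelled as those iPS cells themselves, that is, pluripotent cells reprogrammed from NSC by a pMX-based retroviral vector with mouse Oct4 cDNA, grown in embryonic stem cell medium with LIF on embryonic fibroblasts, and picked and expanded as GFP-positive colonies. The third, with 4 arrays, is NSC of adult brain. The brain NSC came from mice that carry the Oct4-eGFP transgene (OG2) and Rosa26 neo/lacZ and were bred to ICR females, and the labels give that strain for the other two groups too. The sources used here do not say how many colonies or animals the arrays stand for, nor whether the replicates were separate cultures, so the p values below measure only the spread between these samples. Nor do they say if the Pou5f1 probe set detects transcripts of the retroviral cDNA too.

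POU proteins bind DNA through a bipartite domain, a POU-specific part and a POU homeodomain joined by a linker, and many of them recognise the octamer, ATGCAAAT, or variants of it. Pou5f1 (Oct4) is the class V member that holds early embryonic cells and pluripotent cell lines in the undifferentiated state, often bound beside Sox2. The class III members Pou3f1 (Oct6), Pou3f2 (Brn2), Pou3f3 (Brn1) and Pou3f4 (Brn4) act in the developing nervous system, also with Sox partners, and Pou3f2 and Pou3f3 are known for their joint role in the production and migration of cortical neurons. Pou4f1 (Brn3a) marks sensory neurons, and Pou6f1 (Brn5) is expressed in brain.

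Marker genes did not match 2 of the 3 labels. All 6 pluripotent cell markers (Nanog, Zfp42, Dppa5a, Esrrb, Tdgf1 and Utf1) were higher, and all 7 neural stem cell markers (Fabp7, Olig2, Nes, Slc1a3, Ptprz1, Pax6 and Sox1) were lower, in the arrays labelled iPS-derived NSC than in either other group. By the test given below, 10.8% of all genes were higher and 14.4% lower against the arrays labelled iPS. Against brain NSC 11.3% were higher and 14.0% lower. The log2 values of the pluripotent markers summed to between 71.0 and 71.6 on the arrays labelled iPS-derived NSC, between 29.2 and 29.6 on the arrays labelled iPS, and between 29.5 and 30.4 on the brain NSC arrays. Those of the neural stem cell markers summed to 39.6 to 40.1 on the arrays labelled iPS-derived NSC, 78.3 to 78.6 on those labelled iPS, and 77.6 to 79.0 on the brain NSC arrays. The groups are therefore named as the libraries labelled so throughout, and every direction below is relative to those labels. Markers of other cells moved as well. Of 6 feeder fibroblast markers, 5 rose in the arrays labelled iPS-derived NSC against those labelled iPS (10.8% of all genes did). Against brain NSC 6 did (11.3% of all genes). Their sums were 42.2 to 49.0 on the arrays labelled iPS-derived NSC, 32.7 to 33.2 on those labelled iPS, and 32.8 to 33.7 on the brain NSC arrays. Of 6 neuronal markers, Tubb3 rose by 5.34 and Map2 fell by 8.25 against the arrays labelled iPS, and 4 were not called. Of all genes 10.8% rose and 14.4% fell there. The 6 summed to 34.4 to 34.7 on the arrays labelled iPS-derived NSC, 36.6 to 37.5 on those labelled iPS, and 37.3 to 37.9 on the brain NSC arrays. Of the fibroblast genes, Col1a1 lost its call against the arrays labelled iPS without the first array labelled iPS-derived NSC (0.98, against 1.42 with it), Postn gained one there without the third (1.23), and Postn lost its call against brain NSC without the second (0.81) and under quantile scaling (0.9971). Without probe sets ending in _x_at, _s_at and _a_at Col3a1 lost both of its calls, at 0.80 against the arrays labelled iPS (2.95 otherwise) and 0.74 against brain NSC (2.94 otherwise). The part of these cells in the differences below was not tested. In such bulk samples, fewer cells of a type and less RNA per cell cannot be told apart.

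Between the arrays labelled iPS-derived NSC and those labelled iPS, Pou5f1 was higher by 8.62 on the log2 scale, while Pou3f3, Pou3f1, Pou3f4 and Pou6f1 were lower by between 1.71 and 6.00. Against brain NSC the same 5 genes passed the test in the same directions, the second comparison sharing its first group with the first. Between the arrays labelled iPS and brain NSC none of the 7 genes passed. A gene was called when limma's moderated test gave an adjusted p under 0.05 (Benjamini-Hochberg over 18193 genes, the brightest probe set of each) and the difference was at least 2-fold. In the first comparison 5 of 7 genes were called, 1 higher and 4 lower, where 25.3% of all genes were called (10.8% higher and 14.4% lower). In the second, 5 of 7 were called, 1 higher and 4 lower, with 25.4% of all genes (11.3% higher and 14.0% lower). In the third, limma called 0 of 7 genes, with 1.84% of all genes (0.951% higher and 0.89% lower). Of the 7, 3 had an unadjusted limma p under 0.05 there. The share of all genes at that unadjusted limit is not given here, for these genes or for the lists below. The arrays of the groups did not overlap for 6 of 7 genes in the first comparison, with 69.5% of all genes, and for 6 of 7 in the second, with 61.3%. The median difference over the 7 genes was -1.71, -1.27 and 0.11 in the 3 comparisons, against 0.12, 0.13 and 0.01 over all genes.

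**Figure D1:**
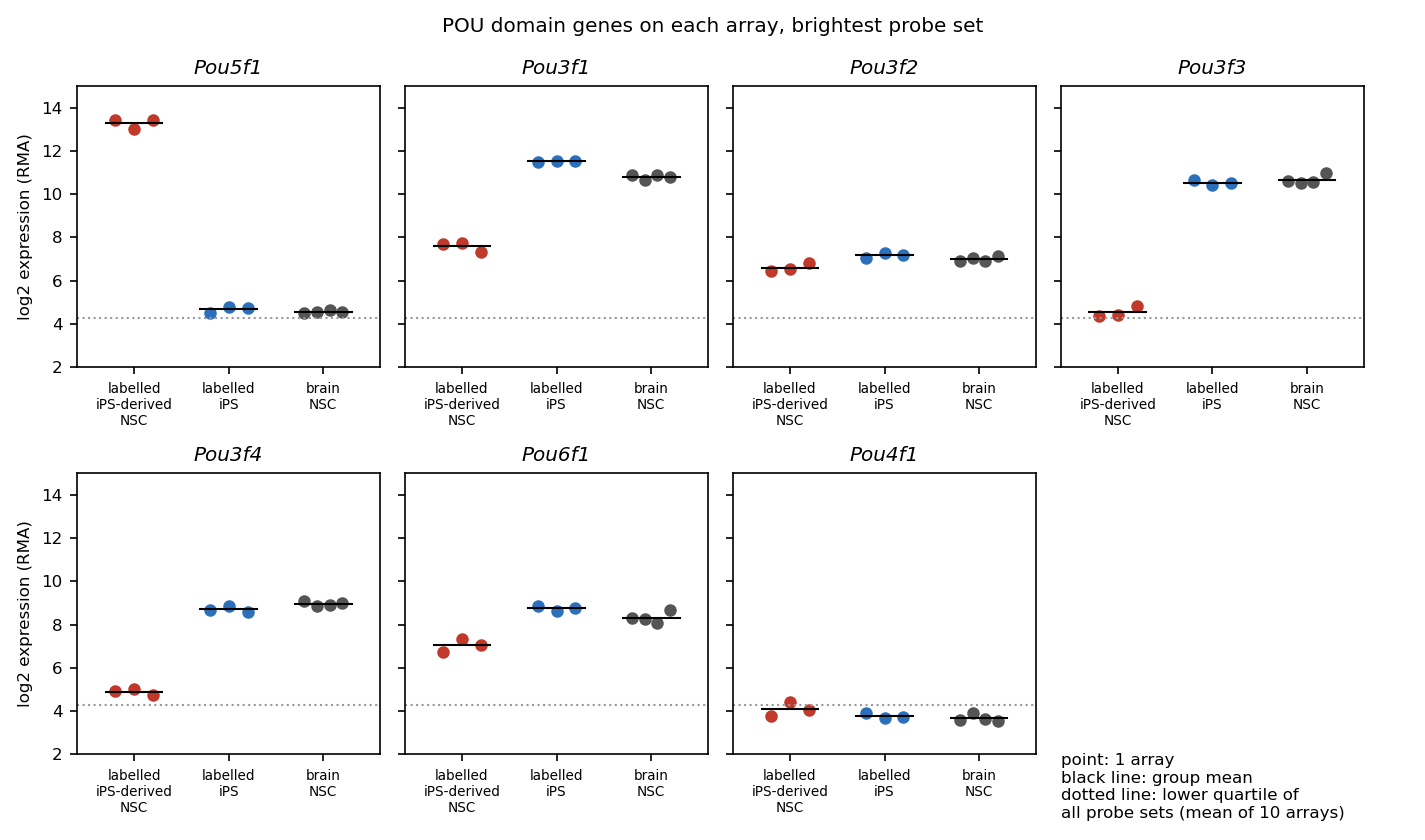
Log2 expression (RMA) of the brightest probe set of each POU gene, 1 point an array, for the 3 arrays labelled iPS-derived NSC, the 3 labelled iPS and the 4 brain NSC arrays; black lines are group means and the dotted line is the lower quartile of all probe sets. Pou5f1 lay between 13.00 and 13.45 on the arrays labelled iPS-derived NSC and below 5 on the other 7, while Pou3f3 lay below 5 on those 3 arrays and above 10 on the other 7.

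Pou5f1, on chromosome 17, was read by 1 probe set (1417945_at). Its log2 values were 13.41, 13.00 and 13.45 on the arrays labelled iPS-derived NSC, 4.49, 4.78 and 4.72 on those labelled iPS, and 4.50, 4.53, 4.62 and 4.56 on the brain NSC arrays. The first group stood apart from both others, and those overlapped. The difference between the arrays labelled iPS-derived NSC and those labelled iPS was 8.62 ± 0.12 (SE; limma adjusted p = 3.42e-15), or 394-fold with a 95% confidence interval of 327 to 475, the 7th largest rise of 18193 genes. Against brain NSC it was 8.74 ± 0.12 (adjusted p = 1.44e-15), or 426-fold with an interval of 358 to 508, the 6th largest. The low values of both other groups lay near the lower quartile of all probe sets, which was between 4.22 and 4.41 over the arrays, and the table gives no detection calls, so these folds are those of the fitted values and are uncertain as ratios of RNA. The arrays labelled iPS and brain NSC differed by 0.11 ± 0.12 (limma adjusted p = 0.563), with an interval of -0.14 to 0.36.

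The window before the Pou5f1 transcript start is shown because Pou5f1 was the one member that rose and because nuclear receptors, several of which are listed below, are known to act on this promoter. It is the stretch of 250 bases at chr17:35505782-35506031 (plus strand, RefSeq, GRCm38.p6), and capitals mark a GC box, GGGCGG, that begins 45 bases before the start and the nuclear receptor motif AGGTCA that begins 33 bases before it.
Pou5f1: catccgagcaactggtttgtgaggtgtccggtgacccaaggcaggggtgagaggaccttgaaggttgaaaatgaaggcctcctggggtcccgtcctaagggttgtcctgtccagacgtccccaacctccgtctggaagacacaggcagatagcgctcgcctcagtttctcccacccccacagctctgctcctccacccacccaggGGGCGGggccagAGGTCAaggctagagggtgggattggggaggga
Letters were searched on both strands and were chosen after the windows had been looked at. Of 32817 RefSeq windows of the same length, 14.0% held AGGTCA and 32.7% held GGGCGG. The window also held 1 CCAAT on the opposite strand, 12 bases before the start, and 0 octamers.

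Pou3f3 (Brn1), on chromosome 1, had the largest fall of the 7 genes in both comparisons. On its brightest probe set (1435197_at) the values were 4.37, 4.42 and 4.83 on the arrays labelled iPS-derived NSC, 10.63, 10.44 and 10.53 on those labelled iPS, and 10.60, 10.52, 10.57 and 10.99 on the brain NSC arrays. The first group was near the lower quartile of all probe sets and apart from the others, which overlapped. It was lower by 6.00 ± 0.15 than in the arrays labelled iPS (63.9-fold, limma adjusted p = 3.84e-13), the 43rd largest fall of all genes. Against brain NSC the difference was -6.13 ± 0.14 (70.2-fold, adjusted p = 1.35e-13), the 32nd largest fall.

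Pou3f4 (Brn4), a regulator known from the inner ear and the striatum, lies on chromosome X. On 1422165_at it stood at 4.92, 5.03 and 4.76 on the arrays labelled iPS-derived NSC, 8.67, 8.88 and 8.59 on those labelled iPS, and 9.08, 8.88, 8.92 and 9.00 on the brain NSC arrays. The differences were -3.81 ± 0.11 against the arrays labelled iPS (14.0-fold, limma adjusted p = 1.79e-12) and -4.07 ± 0.10 against brain NSC (16.8-fold, adjusted p = 4.14e-13). No array of the first group came within 3 log2 units of an array of the others.

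Pou3f1 (Oct6), which drives Schwann cells into myelination and is also known from the epiblast, lies on chromosome 4. On 1460038_at the values were 7.70, 7.74 and 7.33 on the arrays labelled iPS-derived NSC, 11.51, 11.55 and 11.55 on those labelled iPS, and 10.87, 10.66, 10.87 and 10.80 on the brain NSC arrays, and the groups did not overlap. The arrays labelled iPS-derived NSC were lower by 3.95 ± 0.12 than those labelled iPS (15.4-fold, limma adjusted p = 2.53e-12) and by 3.21 ± 0.11 than brain NSC (9.25-fold, adjusted p = 8.92e-12).

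Pou3f2 (Brn2), also on chromosome 4, did not pass the 2-fold limit. On 1450831_at it had 6.45, 6.55 and 6.79 on the arrays labelled iPS-derived NSC, 7.05, 7.30 and 7.19 on those labelled iPS, and 6.92, 7.06, 6.92 and 7.16 on the brain NSC arrays. The first group was apart from both others, with differences of -0.58 ± 0.11 (limma adjusted p = 0.000578) and -0.42 ± 0.11 (adjusted p = 0.0039), or 1.49-fold and 1.33-fold. The other class III genes differed by at least 9.25-fold in the same comparisons on their brightest probe sets.

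The windows of 3 class III genes are shown because each holds the CCAAT letters more than once; no window of Pou3f1 was used here. They are chr1:42695518-42695767 (plus strand) for Pou3f3, chrX:110814129-110814378 (plus strand) for Pou3f4 and chr4:22488367-22488616 (minus strand) for Pou3f2, all from RefSeq and GRCm38.p6, and capitals mark CCAAT or, on the opposite strand, its reverse complement ATTGG.
Pou3f3: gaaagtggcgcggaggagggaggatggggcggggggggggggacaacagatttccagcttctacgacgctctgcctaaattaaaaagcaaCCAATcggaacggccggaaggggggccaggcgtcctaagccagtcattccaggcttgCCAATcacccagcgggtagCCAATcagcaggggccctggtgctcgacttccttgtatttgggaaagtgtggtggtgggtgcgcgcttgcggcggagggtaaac
Pou3f4: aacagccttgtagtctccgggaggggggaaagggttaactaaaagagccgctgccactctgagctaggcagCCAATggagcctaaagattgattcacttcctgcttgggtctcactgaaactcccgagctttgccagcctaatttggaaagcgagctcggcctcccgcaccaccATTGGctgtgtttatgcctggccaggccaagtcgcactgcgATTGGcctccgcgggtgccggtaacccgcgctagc
Pou3f2: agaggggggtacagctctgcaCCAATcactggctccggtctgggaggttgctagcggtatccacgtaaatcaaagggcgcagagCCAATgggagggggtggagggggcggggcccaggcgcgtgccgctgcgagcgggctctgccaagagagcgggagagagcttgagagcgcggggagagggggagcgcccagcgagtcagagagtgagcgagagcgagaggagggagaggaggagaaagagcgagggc
Pou3f3 held 3 CCAAT, beginning 160, 103 and 84 bases before the start, all on the strand of the gene. Pou3f4 held 3, at 179 bases on the strand of the gene and at 76 and 35 bases on the opposite strand, and Pou3f2 held 2, at 229 and 166 bases. Of the 32817 windows, 33.8% held at least 1 CCAAT, 10.1% held 2 or more and 2.79% held 3 or more. Pou3f2, which did not reach 2-fold on its brightest probe set, shares these letters with Pou3f3 and Pou3f4, which did. Any part of these letters in the differences was not tested. The guanine and cytosine content was 60.8% for Pou3f3, 58.0% for Pou3f4 and 66.8% for Pou3f2, against a median of 52.4% over all windows.

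**Figure D2:**
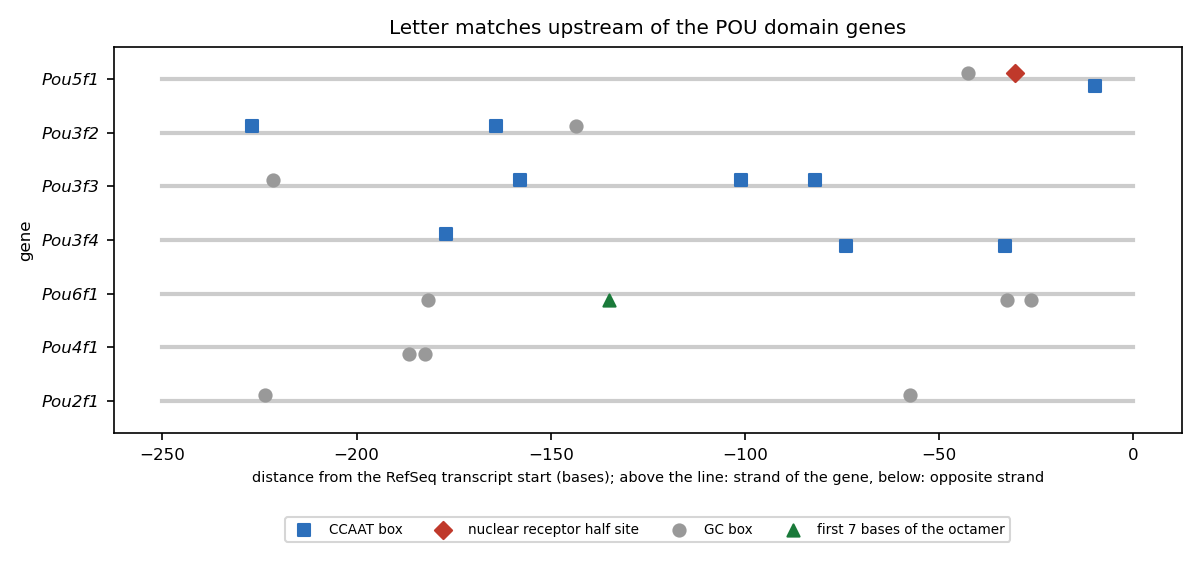
Letter matches in the 250 bases before the RefSeq transcript start of 7 POU genes (Pou2f1 among them, Pou3f1 not), plotted by distance from the start, with the strand of the gene above each line and the opposite strand below. CCAAT matches lie in the Pou5f1, Pou3f2, Pou3f3 and Pou3f4 windows, and the first 7 bases of the octamer match in the Pou6f1 window.

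Pou6f1 (Brn5), on chromosome 15, was lower in the arrays labelled iPS-derived NSC on its brightest probe set, by less than the called class III genes. On 1452844_at it had 6.72, 7.34 and 7.09 on the arrays labelled iPS-derived NSC, 8.88, 8.66 and 8.75 on those labelled iPS, and 8.31, 8.24, 8.09 and 8.66 on the brain NSC arrays. The differences were -1.71 ± 0.16 (3.27-fold, limma adjusted p = 6.17e-07) and -1.27 ± 0.15 (2.42-fold, adjusted p = 5.66e-06). Both calls were lost when a gene was taken as the mean of all its probe sets, with differences of -0.97 and -0.58. On its other probe set, 1420749_a_at, the values were 4.26, 4.19 and 4.21 on the arrays labelled iPS-derived NSC, 4.39, 4.35 and 4.63 on those labelled iPS, and 3.87, 3.88, 3.86 and 4.82 on the brain NSC arrays, and no comparison passed. That probe set was dim, under the lower quartile on all 3 arrays labelled iPS-derived NSC and on 3 of the 4 brain NSC arrays. None of the arrays labelled iPS was under it. This limits the fall that this probe set, or a mean that includes it, could show. Brain NSC replicate 4 stood above the other brain NSC arrays on this probe set.

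The Pou6f1 window is shown because, of the 7 windows used (those of Pou2f1 and of the measured genes other than Pou3f1), it alone holds the first 7 bases of the octamer. It is chr15:100599985-100600234 (minus strand, RefSeq, GRCm38.p6), and capitals mark those letters, TTTGCAT on the strand shown and ATGCAAA on the opposite one, at 138 bases before the start.
Pou6f1: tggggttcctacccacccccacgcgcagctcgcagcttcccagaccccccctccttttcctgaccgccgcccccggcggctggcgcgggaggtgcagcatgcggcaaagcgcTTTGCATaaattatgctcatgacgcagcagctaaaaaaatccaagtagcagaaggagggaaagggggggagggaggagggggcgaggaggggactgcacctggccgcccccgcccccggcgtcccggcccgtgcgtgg
Of all windows 4.13% held ATGCAAA, and 1.6% held the whole octamer, ATGCAAAT, which none of these 7 windows held.

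Pou4f1 (Brn3a), on chromosome 14, was dim. Both of its probe sets were under each array's lower quartile on all 10 arrays. On 1429667_at it had 3.76, 4.41 and 4.07 on the arrays labelled iPS-derived NSC, 3.92, 3.70 and 3.73 on those labelled iPS, and 3.57, 3.94, 3.66 and 3.55 on the brain NSC arrays, so all groups overlapped. The differences were 0.30 ± 0.15 (limma adjusted p = 0.108) and 0.40 ± 0.14 (adjusted p = 0.0271), the second under 2-fold.

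**Figure D3:**
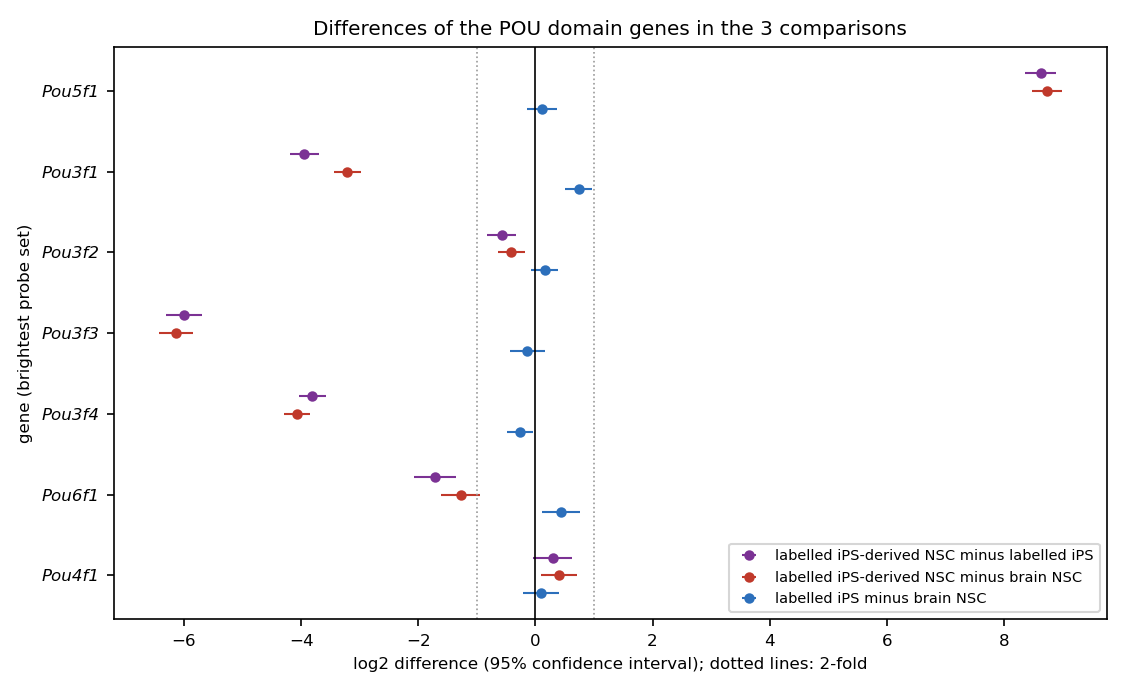
Log2 differences of the 7 POU genes in the 3 comparisons with 95% confidence intervals from limma, brightest probe set of each gene; dotted lines mark 2-fold. Pou5f1 lies at 8.62 and 8.74 where the arrays labelled iPS-derived NSC were compared, Pou3f3 at -6.00 and -6.13, while all 7 genes lie within 2-fold between the arrays labelled iPS and brain NSC.

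Between the arrays labelled iPS and brain NSC the differences were small on the brightest probe sets. Pou3f1 was higher by 0.74 ± 0.11 (limma adjusted p = 0.000491), or 1.67-fold, without reaching 2-fold. Its arrays did not overlap, and those of Pou3f4 did not either, at -0.26 ± 0.10 (adjusted p = 0.0893). That was 2 of 7 genes with arrays apart, where 28.3% of all genes were so. Pou3f3 differed by -0.14 ± 0.14 (adjusted p = 0.552), Pou3f2 by 0.16 ± 0.11 (adjusted p = 0.333), Pou6f1 by 0.44 ± 0.15 (adjusted p = 0.0608) and Pou4f1 by 0.10 ± 0.14 (adjusted p = 0.695). The 95% intervals reached from -0.43 to 0.16 for Pou3f3 and from 0.11 to 0.77 for Pou6f1, so for both a difference of 2-fold lay outside the interval.

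The probe sets of a gene did not always give the same size or sign. Over the 45037 probe sets, limma called 8 of the 14 between the arrays labelled iPS-derived NSC and those labelled iPS (1 higher and 7 lower, where 20.5% of all probe sets were called, 8.62% higher and 11.8% lower). It called 9 of 14 against brain NSC (1 higher and 8 lower, with 20.6% of all, 8.72% higher and 11.9% lower) and 1 of 14, higher, between the arrays labelled iPS and brain NSC (with 2.14% of all, 1.08% higher and 1.06% lower). That 1 was the second probe set of Pou3f1, 1422068_at. It had 7.01, 6.89 and 7.30 on the arrays labelled iPS-derived NSC, 10.02, 10.15 and 10.21 on those labelled iPS, and 7.61, 8.08, 7.91 and 9.04 on the brain NSC arrays. The arrays labelled iPS were above every brain NSC array, by 1.96 ± 0.25 (3.9-fold, limma adjusted p = 0.000156), and by 1.78 to 2.26 with 1 array left out. The same probe set put the arrays labelled iPS-derived NSC lower than brain NSC by 1.10. This call was lost without brain NSC replicate 4, at -0.80, and under quantile scaling of all arrays, at -0.885.

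The second probe set of Pou3f3, 1422331_at, had 5.07, 5.13 and 5.10 on the arrays labelled iPS-derived NSC, 6.15, 6.42 and 6.28 on those labelled iPS, and 6.86, 7.22, 6.80 and 7.46 on the brain NSC arrays. Both of its falls passed, at -1.18 and -1.98, and were smaller than those of the brightest probe set. Here the arrays labelled iPS were lower than brain NSC by 0.80 ± 0.14 (limma adjusted p = 0.00186), under 2-fold, with no overlap. Pou3f4 turned sign in that comparison: its second probe set, 1422164_at, had 5.75, 4.80 and 5.61 on the arrays labelled iPS-derived NSC, 8.60, 9.06 and 8.45 on those labelled iPS, and 8.08, 7.82, 7.96 and 8.14 on the brain NSC arrays. It was higher in the arrays labelled iPS than in brain NSC by 0.70 ± 0.20 (adjusted p = 0.0299). Both of its falls in the arrays labelled iPS-derived NSC passed, at -3.32 and -2.62.

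Pou3f2 had its 1 call on a dimmer probe set, 1457734_at. It stood at 4.30, 4.93 and 4.93 on the arrays labelled iPS-derived NSC, 5.28, 4.81 and 5.07 on those labelled iPS, and 6.39, 5.27, 6.15 and 5.14 on the brain NSC arrays. The difference against brain NSC was -1.02 ± 0.27 and the call was lost without the first array labelled iPS-derived NSC (-0.81) and without brain NSC replicate 1 (-0.80) or 3 (-0.88). On 1453478_at the difference against brain NSC was -0.97. All 3 arrays labelled iPS-derived NSC were under the lower quartile there (4.18, 4.29 and 4.15), so its size is uncertain. The difference was called without the second array labelled iPS-derived NSC (-1.01) and without brain NSC replicate 2 (-1.07) or 4 (-1.002). Quantile scaling of all arrays gave that call too (-1.08). The gaps between a further probe set and the brightest were tested by 21 exact two-sided permutation tests over arrays. The lowest p was 0.0571, the smallest that 3 against 4 arrays can give (0.1 for 3 against 3), and the lowest adjusted p was 0.133, so no gap passed and this design could not have shown one.

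**Figure D4:**
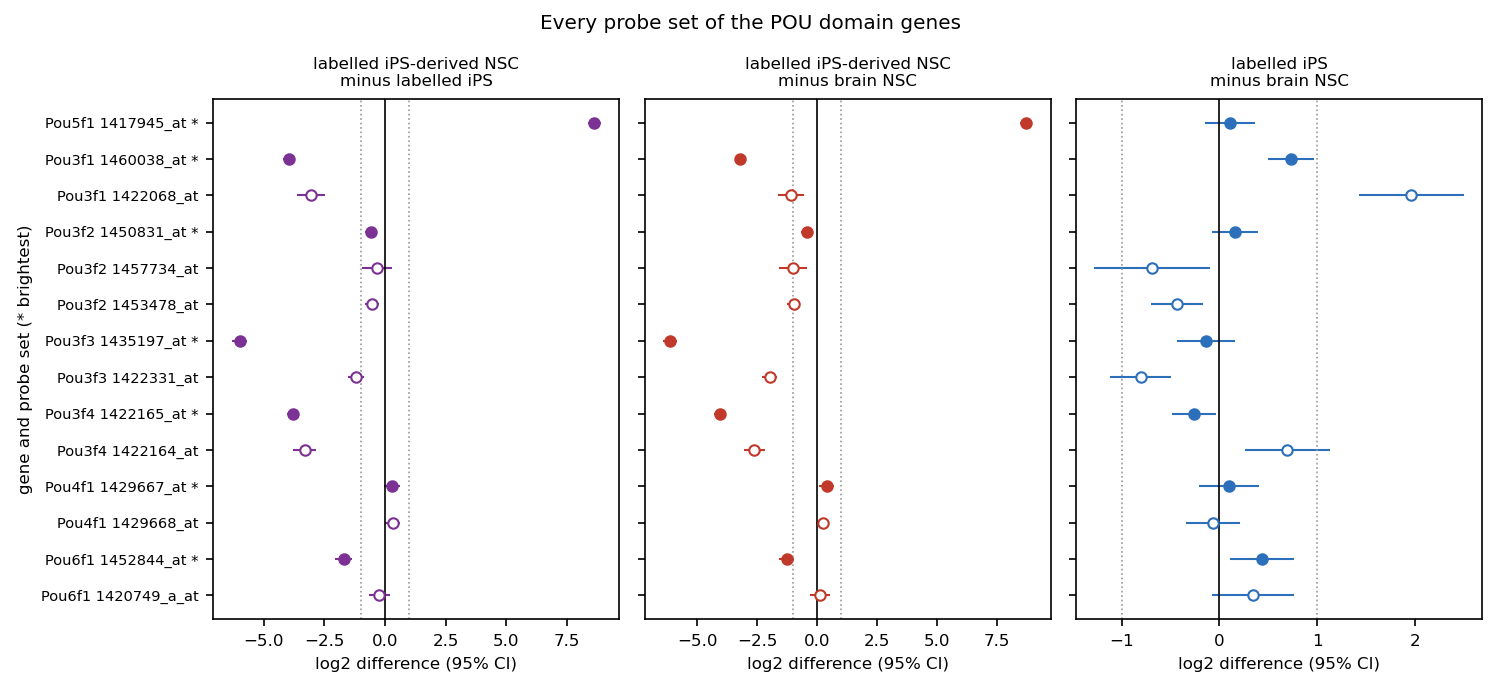
Log2 differences with 95% confidence intervals for all 14 probe sets of the POU genes, filled for the brightest of each gene, in 1 panel a comparison; dotted lines mark 2-fold. The second Pou3f1 probe set lies at 1.96 between the arrays labelled iPS and brain NSC, and the 2 Pou3f4 probe sets lie on opposite sides of 0 there.

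Other genes of the family stayed within 2-fold. Of 8 further POU genes and coactivators listed, 5 were measured, and limma called 0 of them in each comparison, with 4, 3 and 0 at an unadjusted p under 0.05. Pou2f3, a factor known from keratinocytes, was at 7.13 ± 0.02 (SD) on the arrays labelled iPS-derived NSC, 6.68 ± 0.07 on those labelled iPS, and 6.67 ± 0.13 on the brain NSC arrays, differing by 0.45 and 0.46. Pou2f2 (Oct2), a B cell factor, differed by 0.37 and 0.41. Its coactivator Pou2af1 was at 3.35 ± 0.39 on the arrays labelled iPS-derived NSC, 3.34 ± 0.08 on those labelled iPS, and 3.29 ± 0.12 on the brain NSC arrays.

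Of 13 measured genes whose proteins bind with Oct4, 7 rose against the arrays labelled iPS (10.8% of all genes did) and 8 against brain NSC (11.3%), and 0 fell in either. The largest rises were of Sall4, a zinc finger partner, and Nanog. Sall4 was at 13.00 ± 0.05 on the arrays labelled iPS-derived NSC, 5.33 ± 0.07 on those labelled iPS, and 5.28 ± 0.14 on the brain NSC arrays. Nanog was at 11.57 ± 0.11 on the arrays labelled iPS-derived NSC, 3.90 ± 0.13 on those labelled iPS, and 4.08 ± 0.14 on the brain NSC arrays. Both differed by 7.67 against the arrays labelled iPS. Sox2, partner of Oct4 and of the class III factors alike, was at 12.15 ± 0.04 on the arrays labelled iPS-derived NSC, 12.04 ± 0.11 on those labelled iPS, and 12.17 ± 0.07 on the brain NSC arrays, with a difference of 0.11 ± 0.09 against the arrays labelled iPS (95% interval -0.09 to 0.31). Parp1 lay at the 2-fold limit against the arrays labelled iPS, at 0.9965 and not called, and passed without the second array labelled iPS (1.06) or without replicate 2 or 3 labelled iPS-derived NSC (1.06 and 1.004), and Wdr5 passed against brain NSC (0.97 with all arrays) without the second array labelled iPS-derived NSC (1.01) or brain NSC replicate 4 (1.06). Nanog and Esrrb of this list are also pluripotent markers. The median over the list was 1.20 and 1.36, against 0.12 and 0.13 over all genes.

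Oct4 and Sox2 bind side by side at an Oct-Sox element. Of 7 measured genes with a known one, 6 rose against the arrays labelled iPS (10.8% of all genes did) and 6 against brain NSC (11.3%). Sox2 was again the other. Zfp42 (Rex1) had the largest fitted difference, 8.90 ± 0.11, at 12.44 ± 0.07 on the arrays labelled iPS-derived NSC, against 3.54 ± 0.05 on those labelled iPS. The lower means of Zfp42 and Nanog, like those of Nr2f1, Tubb3 and Fabp7 below, lay near or under the lower quartile of the arrays, so the sizes and ranks of these differences are uncertain too. The list median was 5.75 and 5.88, against 0.12 and 0.13 over all genes. Of these 7 genes, Nanog, Zfp42 and Utf1 also stand among the pluripotent markers.

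Regulators of Pou5f1 itself went both ways. Of 12 measured, 7 rose and 3 fell against the arrays labelled iPS, where 10.8% of all genes rose and 14.4% fell. Against brain NSC 7 rose and 2 fell, where 11.3% of all genes rose and 14.0% fell. Sall4, with the largest rise, is also an Oct4 partner. Nr2f1 (COUP-TF1), a nuclear receptor that represses Pou5f1, fell by 6.23 ± 0.14, at 3.85 ± 0.22 on the arrays labelled iPS-derived NSC, against 10.08 ± 0.21 on those labelled iPS and 10.28 ± 0.18 on the brain NSC arrays. Its relative Nr2f2 fell by 2.48 ± 0.26, with 6 probe sets between -3.16 and 0.21. Nr5a2, a receptor that activates Pou5f1, rose by 2.34 ± 0.09, and Nr6a1 (GCNF), which represses it during differentiation, rose by 3.11 ± 0.14. The methyltransferase Dnmt3b rose by 6.15 ± 0.13. Dnmt3a rose by 4.64 ± 0.10 on its brightest probe set, with its 5 probe sets between -2.41 and 4.64. Mbd3 fell against the arrays labelled iPS, by 1.01 ± 0.26, and differed by -0.10 ± 0.24 from brain NSC; the call was lost without the first array labelled iPS (-0.96) or the second labelled iPS-derived NSC (-0.84). Genes beyond the 2 largest of a list were named after their values were seen, for their role or because a call changed.

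Of 9 measured partners and targets of the neural POU factors, 5 fell and 1 rose against the arrays labelled iPS, where 14.4% of all genes fell and 10.8% rose. Against brain NSC 5 fell and 0 rose, where 14.0% of all genes fell and 11.3% rose, with list medians of -2.11 and -2.19. Fabp7, a radial glia lipid binding protein and a known class III target, was at 4.43 ± 0.21 on the arrays labelled iPS-derived NSC, 14.17 ± 0.02 on those labelled iPS, and 14.45 ± 0.10 on the brain NSC arrays, and fell by 9.75 against the arrays labelled iPS. Sox3 fell by 3.92 ± 0.20, Sox11 by 3.19 ± 0.17, Nes by 2.79 ± 0.17 and Dll1 by 2.11 ± 0.12. Against brain NSC Nes fell by 2.33, and averaging its probe sets ended that call (-0.99). Mitf was the 1 that rose, by 1.39 ± 0.16 against the arrays labelled iPS, and did not pass with the mean of its probe sets (0.73). Fabp7 and Nes also stand among the neural stem cell markers.

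Genes tied to Pou3f1 in Schwann cells and to Pou4f1 in sensory neurons were mixed. Of 4 measured Schwann cell genes, 2 fell against the arrays labelled iPS (14.4% of all genes did) and 1 against brain NSC (14.0%). Pmp22, a myelin protein, fell by 3.37 ± 0.13 against the arrays labelled iPS and by 4.03 ± 0.12 against brain NSC. Egr2, which acts after Pou3f1 in myelination, fell by 1.21 ± 0.10 against the arrays labelled iPS. Against brain NSC Egr2 differed by -0.97 ± 0.09, just under 2-fold. That difference passed under 3 scalings or fits and without brain NSC replicate 3 (-1.004) or 4 (-1.001). Sox10 and Gjb1 went the other way on their brightest probe sets and were not called. Sox10 differed by 0.50 and 0.57 in these comparisons, and Gjb1 by 0.38 and 0.34. Of 10 measured sensory neuron genes, 2 rose and 2 fell in both comparisons, counts near those that the shares of all genes give (10.8% higher and 14.4% lower, and 11.3% and 14.0% against brain NSC). Tubb3, a neuronal tubulin, rose by 5.34 ± 0.14 and Neurod1 by 1.82 ± 0.12, while the neurotrophin receptors Ntrk2 and Ntrk3 fell, with differences of -2.80 ± 0.12 and -1.65 ± 0.19. Ntrk3 lost both calls with the mean of its probe sets (-0.29 and -0.20), and that against brain NSC (-1.03) also without the second array labelled iPS-derived NSC (-0.80) or brain NSC replicate 4 (-0.99). Tubb3 also stands among the neuronal markers. The 8 probe sets of Ntrk2 gave differences between -5.30 and 0.08. In every one of these 7 lists limma called 0 genes between the arrays labelled iPS and brain NSC, with 0 to 4 of a list at an unadjusted p under 0.05. Without brain NSC replicate 4, which also drops out under the replicate block, Ehmt2 (1.04, against 0.75 with all arrays) and Mbd3 (1.17, against 0.91) were called there, and without probe sets ending in _x_at, _s_at and _a_at Chd4 was (1.44, against 0.17).

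**Figure D5:**
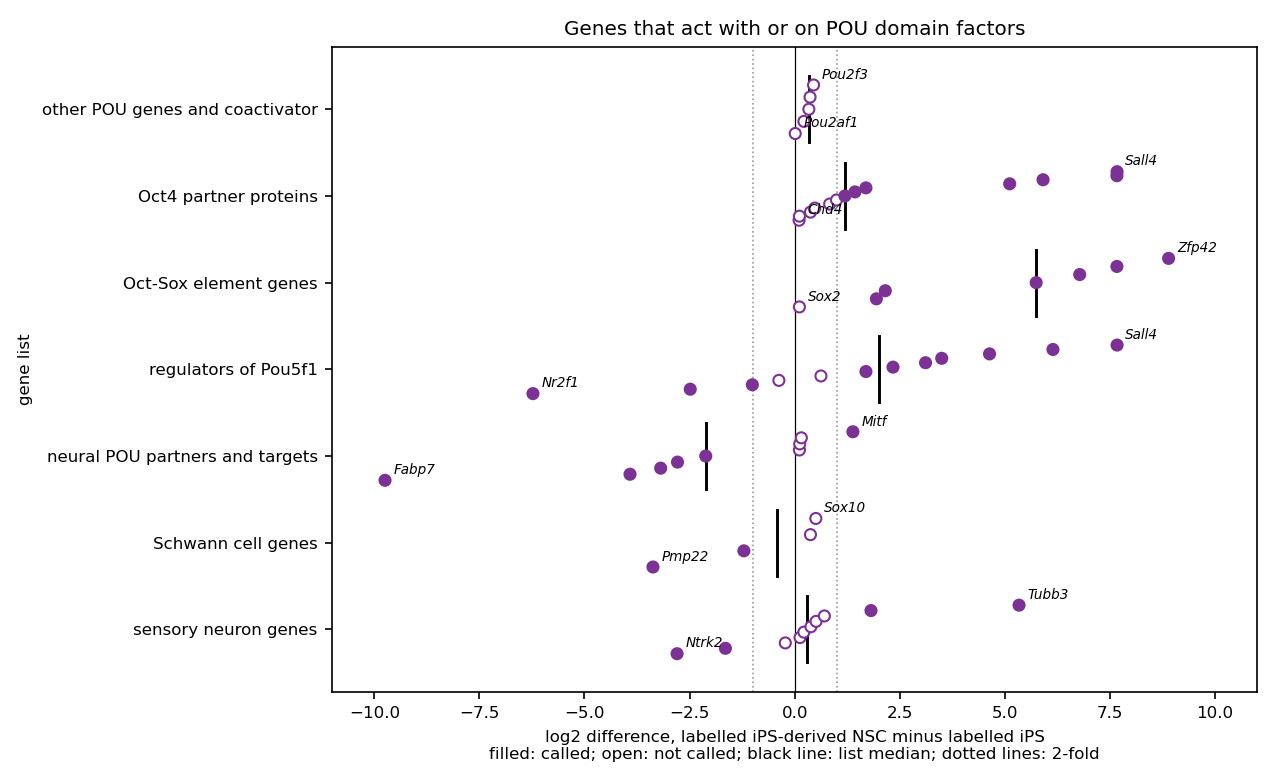
Log2 differences between the arrays labelled iPS-derived NSC and those labelled iPS for the measured genes of 7 lists, filled where limma called the gene and open where not; black lines are list medians and dotted lines mark 2-fold. The Oct-Sox element genes have a median of 5.75, the neural POU partners and targets one of -2.11, and Fabp7 lies lowest at -9.75.

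The genes most like each called member were found over the 10 arrays as those with the smallest root mean square (RMS) difference between profiles centred on their own means, on the log2 scale. Arrays of a group share their label and the arrays fall into groups, so the measure follows the group means above all. For Pou5f1 they were Zfp42, Cdh1, Tdgf1, Rps4l and Tex19.1, with RMS differences of 0.198 to 0.225. For Pou3f3 they were Trib2, Nr2f1, Slc25a18, Slc15a2 and Dock10, at 0.153 to 0.206. For Pou3f1 they were Nbea, St8sia1, Nav3, Nck2 and Nab2, at 0.167 to 0.209. Their means were higher in the arrays labelled iPS than in brain NSC, as with Nbea at 9.00 against 8.25. These genes were picked for a profile like that of Pou3f1, so the shared direction follows from the choice and is no separate result. For Pou3f4 they were Rhobtb3, Phf2, Zbtb18, Lrrc8c and Vopp1, at 0.113 to 0.145. For Pou6f1 they were Cdr2l, Itpr2, Plppr2, Lppos and Tmco3, at 0.0717 to 0.153. On other probe sets Itpr2, Rhobtb3 and Trib2 gave differences of another size or sign. With the mean of its probe sets Tmco3 lost both of its calls. Its differences were then -0.75 against the arrays labelled iPS (-1.62 otherwise) and -0.55 against brain NSC (-1.29 otherwise).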

How the data were processed

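Total RNA from 10 mouse cell cultures was hybridised to 1-colour Affymetrix arrays. The deposited table holds log2 values made by RMA, per the submitters' processing notes, for which the sources used here give no version. It has 45101 probe sets, of which 64 controls were left out. Of the other 45037, 34945 carry 1 symbol, 932 several and 9160 none in the platform annotation. Through Entrez IDs, 34741 probe sets were found in RefSeq (GRCm38.p6) and 0 symbols changed. Each of 18193 genes was taken at its probe set with the highest mean.

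Groups follow the titles. limma 3.58.1 (R 4.3.3; lmFit and eBayes, 7 residual and 5.95 prior degrees of freedom) fitted 3 groups over 10 arrays without a block; tests are two-sided. A second fit covered all 45037 probe sets and gives the values of further probe sets. Scripts were tested on simulated data. The number of arrays limits the precision; no 2 columns were identical.

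By rule, the named genes are the members on every probe set, the 2 called genes of each list and comparison with the largest difference, and the 5 most similar genes per called member; other list and marker genes were named after their values were seen, for their role or because a call changed. The members and lists were chosen with earlier results of these data known. List genes without a probe set under their own symbol in the annotation used were not analysed here. Promoter windows are from RefSeq. Alternatives changed the choice of probe set, scaling, filter, arrays, block and prior trend.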

Additional observations from a re-analysis of the deposited data

Results flagged for a closer look

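Of the 14 POU probe sets, 2 had 1 brain NSC array far from the other 3, by Dixon's criterion for 4 values; chance flags about 1 in 20 groups. Pou3f3 on 1435197_at was 10.99 on brain NSC replicate 4, with the next array at 10.60, and the gap was 0.841 of the range. Pou6f1 on 1420749_a_at was 4.82 on that same array, with the next at 3.88 and a gap of 0.981 of the range. The other 3 brain NSC arrays lay under the lower quartile there. The cause was not tested.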

How the results depend on the processing

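The count of called POU genes was 5 in both comparisons of the arrays labelled iPS-derived NSC under every alternative run except the mean of all probe sets, which gave 4 and 4, and 0 between the arrays labelled iPS and brain NSC except with that mean, which gave 1 (Pou3f1, 1.35). Leaving out each array gave counts of 5 to 5, 5 to 5 and 0 to 0. Calls over the probe sets numbered 18 in all and 17 to 19 over the alternatives. Of 375 recomputed differences of the 7 genes, 372 stayed on the same side of the threshold, 2 lost the call and 1 gained it. A reversal was counted only where the gene was called in the main fit or in the alternative, and there were 0. Uncalled differences could change sign. Between the arrays labelled iPS and brain NSC, Pou3f2 ran from -0.32 to 0.23 and Pou3f4 from -0.34 to 0.22 over the alternatives. Of 5046 for the 95 other genes of the lists and profiles, 5002 stayed on the same side and 3 reversed by that count. All 3 came with probe sets ending in _x_at, _s_at and _a_at left out. They were Itpr2 against brain NSC (0.0239, otherwise -1.48), and, between the arrays labelled iPS and brain NSC, Rhobtb3 (2.02) and Trib2 (-1.26). The cause was not tested. Quantile scaling and equal medians moved the median of all genes by less than 0.1. With the replicate number as a block the POU counts were 5, 5 and 0, and all-gene calls between the arrays labelled iPS and brain NSC were 537, as without brain NSC replicate 4, which has no partner in the block and so drops out; they were 335 otherwise and 223 with the mean of probe sets. In their deviations from the group means, same-number arrays correlated by -0.21 to 0.133 and different-number arrays by -0.161 to 0.316. With so few arrays a group, this cannot tell whether the numbers pair the samples. Values near or under the lower quartile limit the differences of Pou5f1, Pou3f3 and Pou4f1, and of the dimmer probe sets of Pou3f2 and Pou6f1. They also limit those of Nanog, Zfp42, Nr2f1, Tubb3, Map2 and Fabp7.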
